A study of Homo sapiens and Mus musculus with 28 samples.

Results

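Replication-dependent histone genes supply the core and linker histones that package newly copied DNA, and their transcripts were followed here through 24 libraries of SCC1, an established human head and neck squamous carcinoma line. Members were chosen by gene symbol alone, as H1-1 to H1-5 and every numbered H2AC, H2BC, H3C and H4C symbol in the count files. This gave 64 of the 35135 gene IDs, and histone genes without such a symbol there were left out. They comprised 5 H1, 15 H2A, 18 H2B, 11 H3 and 15 H4 genes, of which 52 lie on chromosome 6, 11 on chromosome 1 and 1 on chromosome 12. The study asked how loss of REXO4, an RNA exonuclease, alters these cells. By their names, 15 libraries were grouped here as a knockout experiment. In it, control cells given vehicle (Ctrl_Vehicle) stood beside REXO4 knockouts given vehicle (R4KO_1_Vehicle and R4KO_2_Vehicle) and KO_2 cells given H-151 (KO_2_H151) or BX-795 (KO_2_BX_795). The labels do not say whether the treated and untreated libraries were prepared together. H-151 blocks STING, an adaptor of DNA sensing, and BX-795 blocks TBK1, a kinase that STING activates, as well as other kinases. The other experiment held 9 libraries named Vehicle, iR4 and H151_iR4, and the labels do not spell out iR4. Each of the 8 groups had 3 libraries. The labels do not say whether R4KO_1 and R4KO_2 are clones or pools, give no dose or time for the inhibitors, and do not say whether replicates are separate cultures, so p-values measure only the spread between these libraries.

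Most messenger RNAs end in a poly(A) tail, but the canonical transcripts of these genes do not. They are made mainly in S phase, carry no introns, and end just after a short stem-loop that is bound by the protein SLBP and cut with the help of the U7 small nuclear RNP. Several of the genes also have transcripts that run past the stem-loop to a polyadenylation signal, or are spliced around it, and these are known from arrested or differentiated cells. The libraries were made with oligo(dT) beads, which hold on to poly(A) tails, so the counts below mix such longer forms with whatever tailless RNA was carried over, and the counts do not separate them.

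The targeted gene was checked first. REXO4 stood at 73.9 ± 3.19 CPM (counts scaled to library size with TMM factors; mean ± SD, n = 3) in Ctrl_Vehicle, at 9.38 ± 0.341 in R4KO_1_Vehicle and at 6.29 ± 1.17 in R4KO_2_Vehicle. In KO_2_H151 it was at 17.9 ± 1.53 and in KO_2_BX_795 at 18.9 ± 0.440, so the drug-treated KO_2 cells held more REXO4 transcript than the untreated ones. The Vehicle, iR4 and H151_iR4 groups were at 96.1 ± 3.53, 61.4 ± 2.88 and 91.5 ± 2.28 CPM. Depth ran from 16.04 to 27.94 M counts per library, and the 6 drug-treated KO_2 libraries, at 21.36 M or more, were deeper than the R4KO_2_Vehicle libraries at 17.53 to 17.67 M. Squamous markers summed to 1918 to 4267 CPM per library, against 0 to 0.727 for leukocyte, 0.340 to 2.05 for endothelial and 21.3 to 47.1 for fibroblast markers, with none of the 19 markers at 0 over all libraries.

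The members were low and very unequal. Together they drew 61163 counts, between 96.1 and 182 CPM in each library with a median of 123, where 12 replication-independent histone genes, whose transcripts are mostly polyadenylated, summed to 2117 to 2747 CPM. H2BC1, H2AC1, H3C4, H4C6, H2AC15 and H2BC10 had no count in any library, which allows up to 3 counts over the 24 libraries, or 0.00619 CPM. Another 15 members had between 1 and 20 counts over all libraries, and 12 had more than 1000. The 4 members with the most counts held 64.3% of the total and the first 10 held 86.1%. By family, H2B genes held 55.27% of the counts, H2A genes 20.76%, H4 genes 13.82%, H1 genes 8.17% and H3 genes 1.98%.

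**Figure D1:**
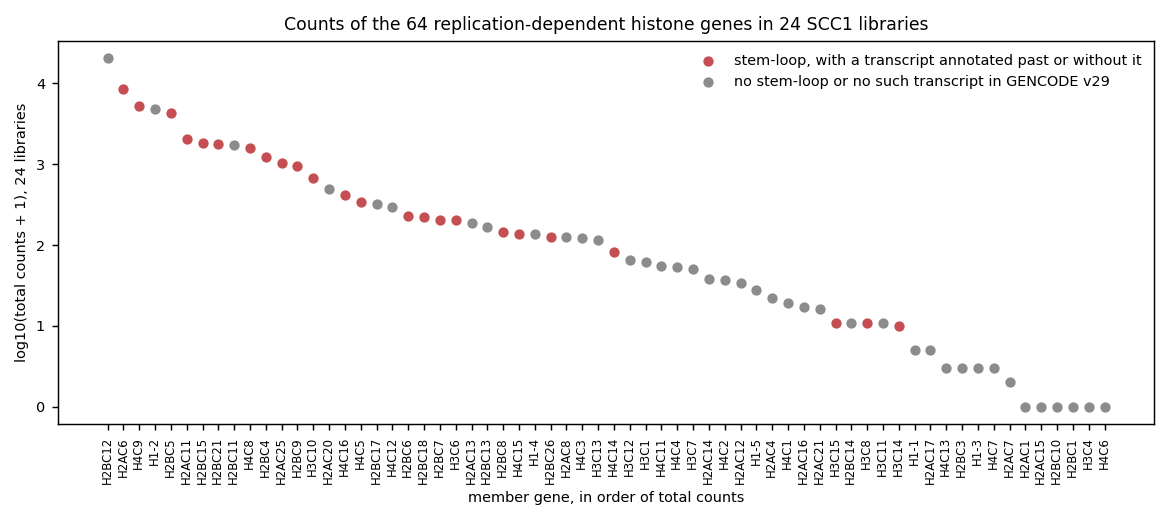
Total counts of each member over the 24 libraries, as log10(counts + 1), in falling order. Red points are the 24 members with a stem-loop in GENCODE v29 and a further transcript annotated beyond or without it, and 9 of the 12 members with over 1000 counts are among them.

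H2BC12, an H2B gene (ENSG00000197903, chr6:27146418-27146798, minus strand, GRCh38), led with 20564 counts. H2AC6, an H2A gene (ENSG00000180573, chr6:26124145-26139116, plus strand), followed with 8650. H4C9, an H4 gene (ENSG00000276180, chr6:27138588-27139881, plus strand), had 5292. The linker histone gene H1-2 (ENSG00000187837, chr6:26055787-26056428, minus strand) had 4829, and H2BC5, an H2B gene, had 4286. Per kilobase of annotated exon, H2BC12 was at 108 CPM, H1-2 at 15.6, H2AC6 at 10.5, H2BC5 at 10.1 and H4C9 at 8.29. These lengths are those of GENCODE v29, which gives H2BC12 and H1-2 no 3′ untranslated region, and the sources used here do not name the annotation used for counting. Of the 50-base windows of the annotated H2BC12 transcript, 74.1% also occur in another gene, so its counts are uncertain. The closest copy, H2BC12L, holds 61.4% of the windows and had 50 counts in all. How reads with several positions were counted is not given, so that low count does not settle the matter.

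The 3′ ends set the members apart from other genes. In GENCODE v29, 32 members have an annotated 3′ untranslated region, and in 29 of them the first 100 bases after the stop codon hold the histone stem-loop, a 16-base hairpin with arms of 6 pairing bases, a GG start, a CC end and fixed bases in its loop. The same search found it in 4 of 19404 other protein-coding genes, or 0.0206%, and these were the histone genes H3-4, H2AX, HIST2H2AA3 and HIST2H2AA4. HIST2H2AA3 and HIST2H2AA4, given here by older names, are H2A genes that were not among the members. The sites below, with 7 bases on either side and the stem-loop in capitals, belong to members named in the results that follow. Members called higher and members called lower are among them, and the search itself fixed part of the sequence they share. H2BC12 and H2BC11, for which no stem-loop was found in the annotation, are absent. Any link between the hairpin and the direction of change was not tested.
H2AC6: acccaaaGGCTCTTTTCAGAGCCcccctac
H2AC11: aaccaacGGCTCTTTTCAGGGCCacccacg
H2BC4: ccccaaaGGCTCTTTTAAGAGCCacccaga
H2BC7: tcccaaaGGCTCTTTTAAGAGCCacccact
H2BC9: acccaaaGGCTCTTTTCAGAGCCacttaat
H2BC21: ctccaaaGGCTCTTTTCAGAGCCacccacc
H3C6: atccaaaGGCTCTTCTCAGAGCCaaccact
H4C5: aatcaaaGGCCCTTTTCAGGGCCgcccaca
H4C9: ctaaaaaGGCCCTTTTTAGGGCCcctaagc
The hairpin shared by H2AC6, H2BC9 and H2BC21 was the commonest, in 15 of the 29 members with a site, and that of H4C5 was found in 5. H2AC6, H2BC9 and H2BC21 have annotated sequence running 1128, 1640 and 1729 bases past it. The annotated 3′ untranslated regions of H1-4, H2BC11 and H4C3 held no match in the window searched.

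Members with a longer annotated form had more counts. Of the 29 members with a stem-loop, 24 also have a transcript annotated at least 100 bases past it or without it, and their median was 377 counts over the 24 libraries, with 9 of them above 1000 and 3 at 20 or fewer. The other 40 members had a median of 30 counts, with 3 above 1000 and 18 at 20 or fewer. Per kilobase of exon the medians were 0.424 and 0.142 CPM, and the sets held 51.57% and 48.43% of the members' counts. Split instead by any annotated 3′ untranslated region, the medians were 0.503 CPM per kilobase with it and 0.0786 without. Stem-loop members with no longer form were at 0.169 to 0.770 CPM per kilobase, a range that holds the median of the 24. The difference is thus not shown among members with a stem-loop. The 40 include 32 members with no annotated 3′ untranslated region at all, H2BC12 and H1-2 among them, whose ends are thus unknown here. They also include H2BC11, whose annotated 3′ untranslated region of 569 bases ends near a polyadenylation signal but held no stem-loop. No read position was available in the count files, so which form was counted cannot be told apart for any member.

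In the REXO4 knockouts there were rises of some members and falls of others. In cultures of many cells, fewer cells in S phase and less RNA per cell cannot be told apart. H2AC6 and H2BC9 fell in both knockouts, and H2BC21 rose in both. H2AC6 was at 21.9, 21.2 and 23.4 CPM in the Ctrl_Vehicle libraries, at 12.9, 12.6 and 10.5 in R4KO_1_Vehicle and at 11.4, 10.6 and 10.6 in R4KO_2_Vehicle. Every knockout library lay below every control library. The log2 fold changes were -0.87 ± 0.08 (SE) and -1.02 ± 0.08, with adjusted p of 2.37e-09 and 2.02e-10 from edgeR's quasi-likelihood test with Benjamini-Hochberg adjustment over all genes. H2BC9, an H2B gene, stood at 3.22, 3.65 and 3.04 CPM in the control, at 1.43, 1.21 and 1.31 in R4KO_1_Vehicle and at 1.20, 1.16 and 1.16 in R4KO_2_Vehicle. Its groups did not overlap, and the log2 fold changes were -1.32 ± 0.21 and -1.49 ± 0.22 (edgeR adjusted p = 1.19e-05 and 2.93e-06). H2BC21 (ENSG00000184678, chr1:149884459-149886652, minus strand), an H2B gene away from the main cluster, was at 4.10, 3.48 and 5.03 CPM in the control, at 5.75, 5.46 and 6.04 in R4KO_1_Vehicle and at 6.10, 5.52 and 5.74 in R4KO_2_Vehicle. The knockout libraries were all above the control libraries, with log2 fold changes of 0.46 ± 0.14 in each, but leaving out Ctrl_Vehicle replicate 2 gave edgeR adjusted p of 0.0575 and 0.0534.

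Of the 25 members that passed the filter on low counts in the knockout experiment, 9 rose and 5 fell in R4KO_1_Vehicle against Ctrl_Vehicle. Of all tested genes, 33% rose and 31.4% fell there, 64.5% together. In R4KO_2_Vehicle, 5 members rose and 7 fell, where 34% of all tested genes rose and 32.2% fell, 66.2% together. The members' shares, 56% and 48%, were no larger than those backgrounds. These shares were not matched for count level, and few counts make a call harder. The members' median log2 fold changes were 0.23 and 0.05 beside 0.02 and 0.02 over all genes. Linker histone H1-2 rose in R4KO_1_Vehicle, from 9.78 ± 1.18 to 14.9 ± 0.452 CPM (mean ± SD, n = 3; log2 fold change 0.61 ± 0.09, edgeR adjusted p = 3.65e-06). Among core histones, H4C8 and H4C9 also rose there, by log2 fold changes of 0.49 ± 0.16 and 0.38 ± 0.11, and H2AC20 fell by 0.92 ± 0.30. In R4KO_2_Vehicle, H4C5 fell by 1.16 ± 0.29 on the log2 scale and H2BC11 fell by 0.95 ± 0.19, while H2BC7 and H3C6 rose by 1.62 ± 0.42 and 1.45 ± 0.41. H2BC7 and H3C6 rest on 206 and 205 counts over all 24 libraries, so each library contributed few. H4C12 rose in both knockouts, by 1.20 ± 0.43 and 1.34 ± 0.42, but every 50-base window of its annotated transcript occurs elsewhere in the annotation, so its counts are uncertain.

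Several of these calls turned on single libraries. In R4KO_1_Vehicle, H2AC11 was no longer called without R4KO_1_Vehicle replicate 3 (edgeR adjusted p = 0.0935). H2BC11, lower there, was lost without R4KO_1_Vehicle replicate 3 or Ctrl_Vehicle replicate 3, at up to 0.131. H2BC17, higher, was lost without R4KO_1_Vehicle replicate 1 or Ctrl_Vehicle replicate 1 or 3 and with DESeq2, at up to 0.198. H3C6 and H4C12 lost their call in R4KO_1_Vehicle with DESeq2 and without any of R4KO_1_Vehicle replicate 2, Ctrl_Vehicle replicate 1 or Ctrl_Vehicle replicate 2, at up to 0.171 and 0.152. H3C6 also lost it without R4KO_1_Vehicle replicate 3, with RLE factors, with no filter and in a fit of all 24 libraries, and H2BC17 in a fit of the compared groups alone. In R4KO_2_Vehicle, the rise of H1-2 was lost without R4KO_2_Vehicle replicate 1 or 3 or Ctrl_Vehicle replicate 1 or 3, and with DESeq2 or no filter, at up to 0.114. The fall of H2AC20 there was lost without replicate 2 of either group and with DESeq2, at up to 0.0899. The calls named for H2AC6, H2BC9, H2BC12, H4C5, H4C8, H4C9 and H2BC7 in these comparisons were kept under every alternative in which the gene was tested.

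**Figure D2:**
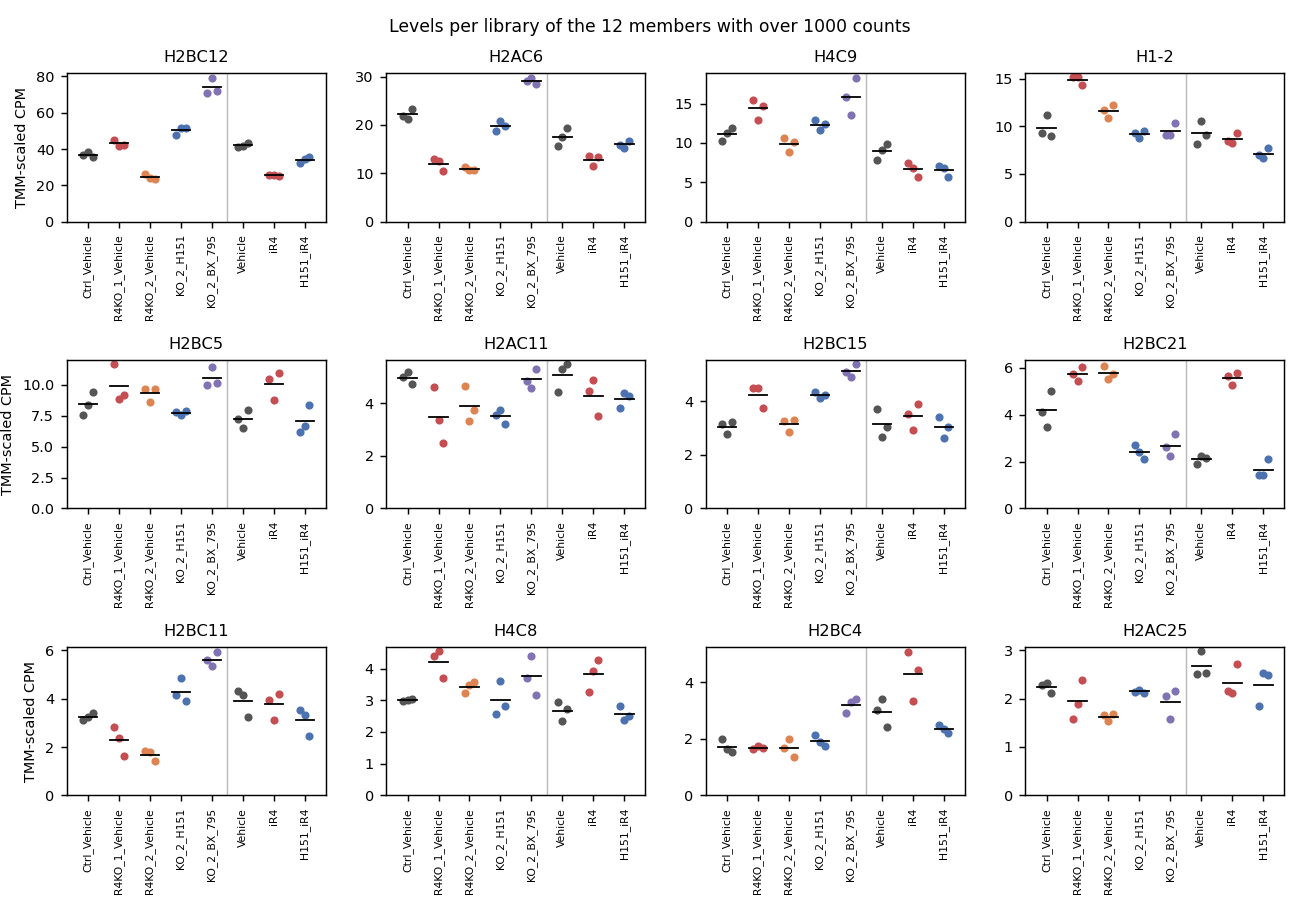
TMM-scaled CPM of the 12 members with over 1000 counts in each library, with dots for libraries and bars for group means, and a grey line between the knockout and iR4 experiments. H2AC6 lies lower in both knockouts and in iR4 than in their controls, H2BC21 lies higher in all 3, and H2BC12 moves in opposite directions in R4KO_1_Vehicle and R4KO_2_Vehicle.

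The knockouts differed at H2BC12, the member with the most counts, though shared sequence leaves those counts uncertain. It was at 36.5, 38.3 and 35.9 CPM in Ctrl_Vehicle, at 45.2, 41.7 and 42.4 in R4KO_1_Vehicle and at 26.2, 23.8 and 23.5 in R4KO_2_Vehicle. The R4KO_1_Vehicle libraries were all above the control and the R4KO_2_Vehicle libraries all below it. Against Ctrl_Vehicle the log2 fold changes were 0.23 ± 0.06 and -0.59 ± 0.06 (edgeR adjusted p = 0.00157 and 3.90e-08). Set directly against R4KO_1_Vehicle, R4KO_2_Vehicle was lower by a log2 fold change of -0.82 ± 0.06 (edgeR adjusted p = 2.75e-09). H4C9 differed in the same direction, at 14.4 ± 1.30 CPM in R4KO_1_Vehicle and 9.88 ± 0.881 in R4KO_2_Vehicle (-0.55 ± 0.11, edgeR adjusted p = 4.52e-04), as did H1-2, at 14.9 ± 0.452 and 11.6 ± 0.722 CPM (a log2 difference of -0.36 ± 0.09, with adjusted p = 0.00249 in edgeR). H2BC15 and H2BC17 were the other members called, both lower in R4KO_2_Vehicle. Leaving out R4KO_1_Vehicle replicate 1, or any 1 of the R4KO_2_Vehicle libraries, ended the call for H2BC17, as did DESeq2 and a fit of these groups alone (edgeR adjusted p up to 0.192). These 5 of 25 tested members make 20%, where 31.6% of all tested genes were called (15.1% higher and 16.6% lower), and no member was higher, with none at an unadjusted p under 0.05 in edgeR and none with DESeq2.

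In KO_2 cells given an inhibitor, H2BC12, H2AC6 and H2BC11, genes of the main cluster, stood well above their untreated level. H2BC12 rose to 47.8, 51.4 and 51.5 CPM in KO_2_H151 and to 70.8, 79.0 and 72.1 in KO_2_BX_795. All 6 treated libraries were above every R4KO_2_Vehicle library, with log2 fold changes of 1.02 ± 0.06 and 1.58 ± 0.06 (edgeR adjusted p = 9.87e-13 and 4.80e-16). H2AC6 was at 18.7, 20.8 and 19.8 CPM with H-151 and at 29.1, 29.7 and 28.5 with BX-795, rises of 0.85 ± 0.08 and 1.41 ± 0.07 on the log2 scale (adjusted p = 1.89e-09 and 1.82e-13 in edgeR). H2BC11, at 1.825, 1.789 and 1.421 CPM in R4KO_2_Vehicle, was at 4.146, 4.841 and 3.898 with H-151 and at 5.62, 5.34 and 5.92 with BX-795. Its log2 fold changes of 1.33 ± 0.17 and 1.73 ± 0.16 were the largest rises of any member in these comparisons (edgeR adjusted p = 3.62e-07 and 2.67e-09). H2BC9, at 1.17 ± 0.0240 CPM in R4KO_2_Vehicle, was at 1.282 ± 0.336 and 1.497 ± 0.456 in the treated groups and did not pass the test.

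Other members moved down with both inhibitors. H2BC21 fell to 2.69, 2.42 and 2.12 CPM with H-151 and to 2.63, 2.24 and 3.18 with BX-795, less than every R4KO_2_Vehicle library. The log2 fold changes were -1.28 ± 0.15 and -1.10 ± 0.14 (edgeR adjusted p = 7.63e-08 and 4.32e-07). H2BC7 fell by 1.69 ± 0.39 and 1.14 ± 0.36 on the log2 scale, H3C6 fell by 1.23 ± 0.37 and 1.09 ± 0.36, and H1-2 fell by 0.35 ± 0.09 and 0.30 ± 0.09. With BX-795, the call for H2BC7 was lost without R4KO_2_Vehicle replicate 1 (edgeR adjusted p = 0.0716) and that for H3C6 without R4KO_2_Vehicle replicate 2 and with DESeq2 (up to 0.0799). With H-151, 5 members rose and 8 fell, where 35.7% of all tested genes rose and 37% fell, 72.7% together. With BX-795, 7 members rose and 4 fell, where 36.4% of all genes rose and 37.1% fell, 73.6% together. The members' 52% and 44% lay below those backgrounds, with medians of -0.17 and 0.11 beside -0.01 and -0.01 over all genes. As count levels were not matched, the lower shares do not show a weaker response of the members. Among smaller changes with H-151, the falls of H2BC5 and H3C10 and the rise of H4C9 were lost when 1 library was left out. For H4C9 that library was R4KO_2_Vehicle replicate 2 (edgeR adjusted p = 0.0774). For H2BC5 it was replicate 1 or 2 of KO_2_H151 or replicate 1 or 3 of R4KO_2_Vehicle (up to 0.0796), and for H3C10 any of these groups' libraries but KO_2_H151 replicate 1 (up to 0.165). Both were also lost with DESeq2, and H3C10 with RLE factors, no filter or all 24 libraries in the fit.

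**Figure D3:**
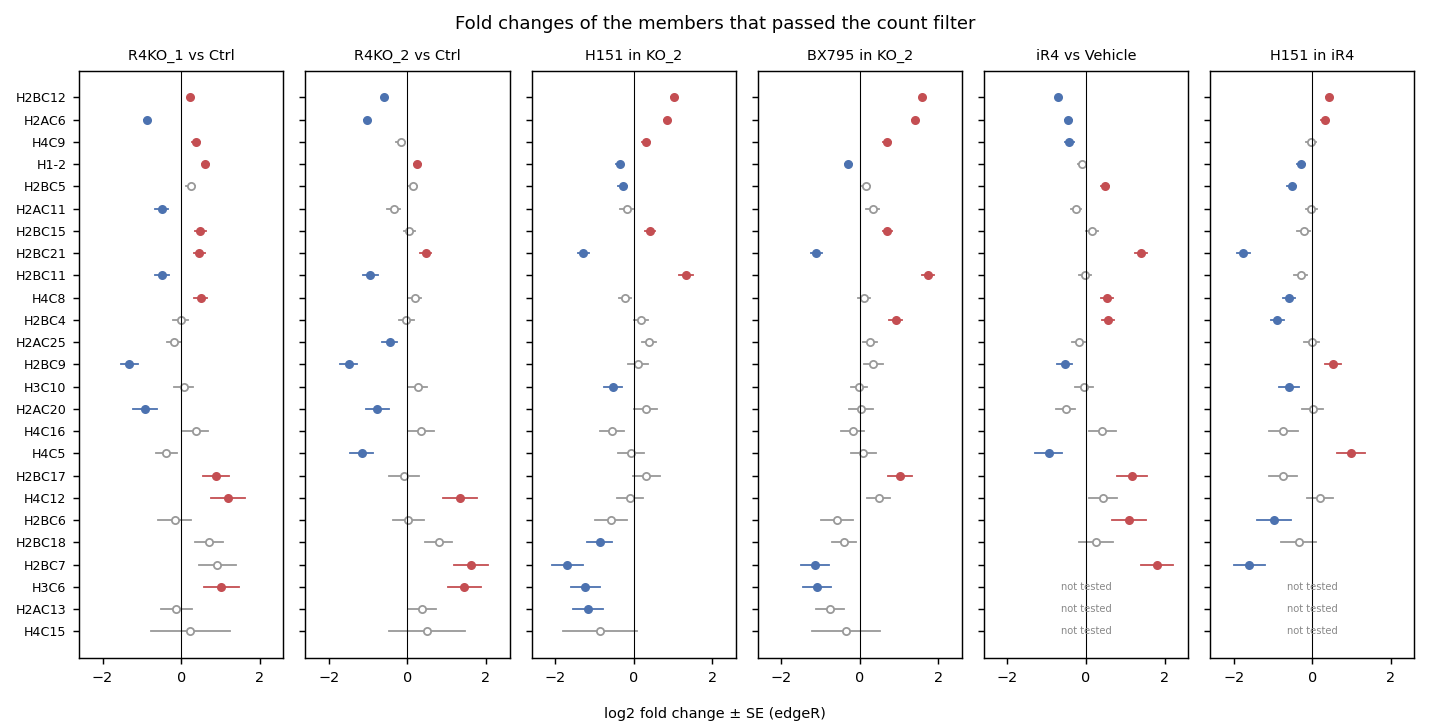
Log2 fold change ± SE of every member that passed the count filter, in 6 comparisons, ordered by total counts; filled red and blue points passed the edgeR threshold as higher or lower, and open points did not. The signs of H2BC12, H2AC6 and H2BC21 in R4KO_2_Vehicle against Ctrl_Vehicle are opposite to their signs under both inhibitors, and these comparisons share the R4KO_2_Vehicle libraries.

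Because the knockout and inhibitor comparisons share the R4KO_2_Vehicle libraries, the treated groups were also set against Ctrl_Vehicle, a choice made after the data were seen. H2BC12 was above Ctrl_Vehicle by log2 fold changes of 0.44 ± 0.06 with H-151 and 0.99 ± 0.06 with BX-795 (edgeR adjusted p = 1.53e-06 and 2.75e-12). H2BC11 was above it by 0.38 ± 0.15 and 0.79 ± 0.15. H2AC6 was slightly below it with H-151, at -0.18 ± 0.07, and above it with BX-795, at 0.38 ± 0.07. H2BC21 was below it, at -0.81 ± 0.16 and -0.64 ± 0.15, although R4KO_2_Vehicle lay above it. H2BC9 and H4C5 remained below Ctrl_Vehicle, by -1.38 ± 0.20 and -1.24 ± 0.28 with H-151 and by -1.14 ± 0.20 and -1.08 ± 0.27 with BX-795. In all, 4 members were higher and 5 lower with H-151, where 26% of all tested genes were higher and 26.9% lower, 53% together. With BX-795 9 were higher and 4 lower, where 27.7% of all genes were higher and 28% lower, 55.7% together. Set against R4KO_1_Vehicle in the same way, H2AC6 was higher by 0.70 ± 0.08 and 1.26 ± 0.07, H2BC12 by 0.20 ± 0.06 and 0.76 ± 0.05, and H2BC21 was lower, at -1.28 ± 0.15 and -1.10 ± 0.14. There 3 members were higher and 6 lower with H-151 (all tested genes: 33% higher, 35.3% lower, 68.3% together), and 5 higher and 3 lower with BX-795 (33.8% higher, 35.2% lower, 69% together). The directions of these 3 genes under the inhibitors were thus the same against either knockout. Both sets of comparisons use the same treated libraries, so they cannot separate drug from a difference in library preparation.

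BX-795 and H-151 were compared directly in KO_2 cells. Members were higher with BX-795 in 6 of 25 cases, a share of 24% where 5.67% of all tested genes were higher and 3.99% lower (9.67% together), and the median log2 difference over the 25 was 0.40 beside 0.00 over all genes. H2BC4 was at 3.198 ± 0.256 CPM with BX-795 and 1.92 ± 0.202 with H-151 (0.74 ± 0.15, edgeR adjusted p = 0.00295). H2AC6 differed by 0.56 ± 0.07 (edgeR adjusted p = 6.91e-06), H2BC12 by 0.56 ± 0.05 (3.48e-07) and H2BC5 by 0.44 ± 0.10 (0.00839). For each of these 4 genes the libraries of the treatments did not overlap. H2AC11 and H4C9 were also called, but H2AC11 lost its call with DESeq2 and without any 1 of the 6 libraries (edgeR adjusted p up to 0.170). H4C9 lost it without KO_2_BX_795 replicate 1 or 3 or KO_2_H151 replicate 2 or 3 (up to 0.145). No member was lower, with none at an unadjusted p under 0.05 in edgeR and none with DESeq2. Doses are not given in the labels, so the groups are set side by side as treated groups and not at matched doses.

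The groups of the knockout experiment differed in other ways as well. Squamous markers summed to 3916 to 4267 CPM in Ctrl_Vehicle, 2774 to 3281 in R4KO_1_Vehicle, 3226 to 3315 in R4KO_2_Vehicle, 1918 to 1975 in KO_2_H151 and 2477 to 2537 in KO_2_BX_795. Fibroblast markers summed to 23.1 to 23.7, 35.6 to 39.9, 32.96 to 36.3, 37.02 to 38.8 and 45.3 to 47.1 CPM in the same order. Squamous sums were thus below control in every other group and lowest with H-151, and fibroblast sums were above control in every other group. Neither list moved as a whole. CDH1 and SFN had higher means in both knockouts, at 50.9 and 55.2 against 32.4 CPM and at 1038 and 1120 against 907, and the other squamous markers lower ones. COL1A1 made most of the fibroblast sum, at 21.4, 34.5, 28.8, 37.9 and 46.2 CPM in the same order. COL3A1 was at 2.02, 2.76, 5.75, 0.189 and 0.24 CPM. The part of these differences in the members' changes was not tested. Other nonpolyadenylated RNAs, 24 genes with 14 detected, summed to 1.67 to 2.04 CPM in KO_2_H151 and 1.86 to 2.67 in KO_2_BX_795, against 0.678 to 1.58 in R4KO_2_Vehicle. RN7SK, a tailless small nuclear RNA and the only one of them that was tested, stood at 0.14 ± 0.1098 CPM in R4KO_2_Vehicle, 1.03 ± 0.191 in KO_2_H151 and 1.13 ± 0.213 in KO_2_BX_795 (edgeR log2 fold changes of 2.81 ± 0.40 and 2.95 ± 0.39, adjusted p = 1.61e-06 and 5.17e-07). The sum over the 24 genes had means of 1.07, 1.89 and 2.30 CPM in the same order. Its rise was thus mostly RN7SK and does not show a rise of tailless RNAs in general. The part of carried-over tailless RNA in the members' changes was not tested. Between the inhibitors RN7SK differed by 0.15 ± 0.24 (edgeR adjusted p = 0.765). Groups with no inhibitor in their names also had unequal RN7SK means. Those of Ctrl_Vehicle and R4KO_1_Vehicle were low, 0.0584 and 0.177 CPM. In the other experiment RN7SK averaged 0.701 CPM for Vehicle (SD 0.582), 0.888 for iR4 (SD 0.403) and 1.25 for H151_iR4 (SD 0.334). A higher RN7SK mean was thus not limited to inhibitor-treated groups, and the source of these differences was not tested. REXO4 and depth were also higher in the treated groups, and drug, culture, library preparation and residual REXO4 cannot be told apart.

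**Figure D4:**
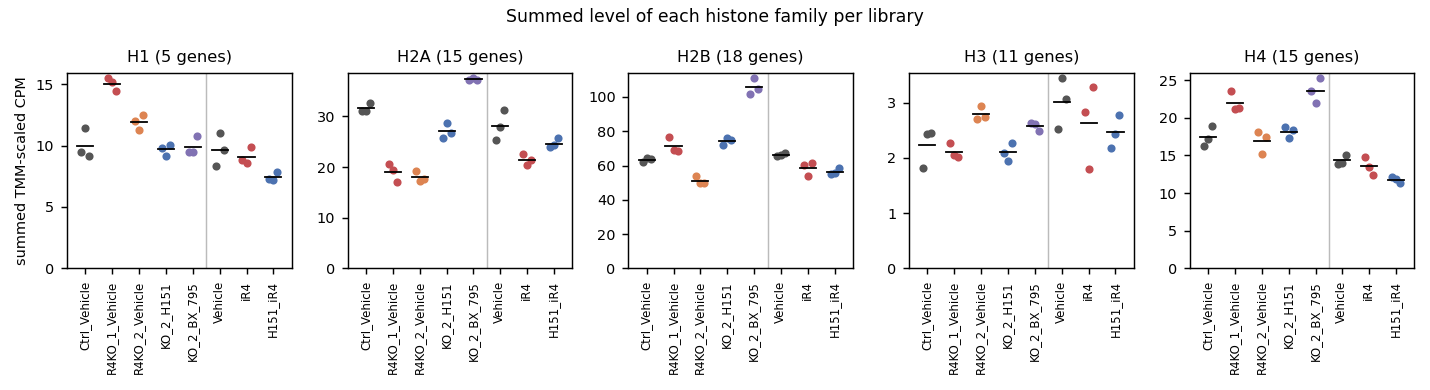
Summed TMM-scaled CPM of each histone family per library, with bars at group means and a grey line between the experiments. H2A and H2B sums are highest in KO_2_BX_795, H1 is highest in R4KO_1_Vehicle, and the H3 sum stays between 1.80 and 3.45 CPM.

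Summed by family, the H2B genes were at 63.4 ± 1.24 CPM in Ctrl_Vehicle (mean ± SD, n = 3), 71.5 ± 4.66 in R4KO_1_Vehicle, 51.1 ± 2.48 in R4KO_2_Vehicle, 74.4 ± 1.97 in KO_2_H151 and 106 ± 4.68 in KO_2_BX_795. The H2A genes were at 31.6 ± 0.901, 19.1 ± 1.82, 18.0 ± 1.11, 27.0 ± 1.47 and 37.3 ± 0.154 CPM in the same order. Thus H2A sums were below control in both knockouts, whereas H2B sums were above control in R4KO_1_Vehicle and below it in R4KO_2_Vehicle. H4 sums were highest in KO_2_BX_795 (23.6 ± 1.63) and R4KO_1_Vehicle (21.99 ± 1.30), and H1 sums in R4KO_1_Vehicle (15.02 ± 0.509). These sums rest on few genes. Without H2BC12 the sum over all members was 87.8 ± 3.49 CPM in Ctrl_Vehicle, 86.6 ± 6.38 in R4KO_1_Vehicle, 76.2 ± 3.75 in R4KO_2_Vehicle, 81.16 ± 0.4998 in KO_2_H151 and 105 ± 2.86 in KO_2_BX_795.

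In the iR4 experiment H2BC12 and H2AC6 fell and H2BC21 rose in iR4 cells. H2BC12 was at 41.1, 41.7 and 43.1 CPM in Vehicle and at 25.9, 25.5 and 25.3 in iR4 (log2 fold change -0.71 ± 0.05, edgeR adjusted p = 9.35e-12). H2AC6 was at 15.7, 17.4 and 19.4 CPM in Vehicle and at 13.5, 11.5 and 13.3 in iR4 (-0.45 ± 0.08, edgeR adjusted p = 3.55e-05). H2BC21 was at 1.91, 2.23 and 2.17 CPM in Vehicle and at 5.65, 5.25 and 5.77 in iR4 (1.40 ± 0.15, edgeR adjusted p = 5.21e-09). None of these 3 genes had overlapping groups. H2BC7 rose the most, from 0.2202 ± 0.1002 to 0.798 ± 0.0547 CPM (1.82 ± 0.41, edgeR adjusted p = 3.15e-04). H2BC5, H4C8 and H2BC4 rose as well, by 0.49 ± 0.11, 0.52 ± 0.15 and 0.56 ± 0.16, and H4C9 fell by 0.43 ± 0.11 on the log2 scale. The Vehicle and iR4 libraries overlapped for H2BC4. Squamous markers summed to 2918 to 3103 CPM in Vehicle, 2949 to 3006 in iR4 and 1988 to 2091 in H151_iR4. Within that sum KRT5 was lower and KRT17 higher in iR4 than in Vehicle, at 517.5 against 941 and 626 against 371 CPM. Fibroblast markers summed to 21.3 to 24.5, 32.9 to 38.5 and 24.6 to 26.5, mostly COL1A1 at 22.3, 35.3 and 24.3 CPM. The part of these markers in the members' changes was not tested. In all, 7 of 22 tested members rose and 5 fell, 54.55% where 71.9% of all tested genes were called (37.1% higher and 34.8% lower), with a median of 0.06 beside 0.02 over all genes. The fall of H2BC9 was lost without iR4 replicate 2 or Vehicle replicate 2 (edgeR adjusted p up to 0.0749), and the rise of H2BC17 without Vehicle replicate 2 (0.0536). The rise of H2BC6 was lost with DESeq2 or without iR4 replicate 3 or Vehicle replicate 1 or 3 (up to 0.123), and the fall of H4C5 with DESeq2 or without iR4 replicate 3 or Vehicle replicate 2 (up to 0.0886).

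With H-151 in this experiment, H2BC12, H2AC6 and H2BC21 lay nearer to Vehicle. H2BC12 was at 32.4, 34.4 and 35.6 CPM in H151_iR4, above iR4 by 0.41 ± 0.06 on the log2 scale (adjusted p = 3.02e-07 in edgeR). Its 3 libraries lay between those of iR4 and Vehicle. H2AC6 was at 15.9, 15.3 and 16.7 CPM, above iR4 by 0.31 ± 0.09 (edgeR adjusted p = 0.00227). H2BC21 was at 1.45, 1.43 and 2.10 CPM, below iR4 by a log2 fold change of -1.75 ± 0.16 (edgeR adjusted p = 3.71e-10). H2BC7, H2BC4, H4C8 and H2BC5 fell too, by 1.60 ± 0.40, 0.89 ± 0.17, 0.59 ± 0.16 and 0.52 ± 0.11 on the log2 scale. In total 4 of 22 members rose and 8 fell, where 71.4% of all tested genes were called (35.1% higher and 36.3% lower), and the median was -0.29 beside -0.01. Calls for H1-2, H2BC6, H2BC9, H3C10 and H4C5 in this comparison did not hold without 1 library. The libraries were H151_iR4 replicate 2 or iR4 replicate 3 for H1-2 (edgeR adjusted p up to 0.105) and H151_iR4 replicate 2 or iR4 replicate 1 or 2 for H2BC9 (0.0920). They were H151_iR4 replicate 1 or iR4 replicate 3 for H4C5 (0.0661), H151_iR4 replicate 2 or iR4 replicate 2 or 3 for H2BC6 (0.351), and H151_iR4 replicate 1 or 2 or iR4 replicate 1 or 3 for H3C10 (0.149). DESeq2 also ended these calls except that of H2BC9, and that of H2BC6 was lost as well with no filter, other sets of libraries or the replicate block. This comparison shares the iR4 libraries with the one before it, and REXO4 was higher in H151_iR4 than in iR4, so drug and REXO4 level cannot be told apart here either.

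The H-151 effect was compared between the experiments in a fit of all 24 libraries. It was lower in iR4 cells, as a lesser rise or a fall, for 5 of 26 tested members, 19.23% where 50.7% of all tested genes were called (23.7% higher and 27% lower). H2BC11 showed the largest called difference, -1.63 ± 0.24 on the log2 scale (adjusted p = 1.97e-06 in edgeR). It was at 3.76 ± 0.565 CPM in iR4 and 3.11 ± 0.590 in H151_iR4, whereas it rose in KO_2 cells. H2BC4 differed by -1.07 ± 0.25, H2BC12 by -0.62 ± 0.08 and H2AC6 by -0.54 ± 0.12, and H2BC15, whose locus overlaps H2AC15 and H2AC16, was also called. No member had a higher effect in iR4 cells, with 1 at an unadjusted p under 0.05 in edgeR and none with DESeq2. For H2BC21 the difference was -0.48 ± 0.22 (edgeR adjusted p = 0.0726). Knockout or iR4 status and the experiment differ together between these groups and cannot be told apart.

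Many H2A and H2B genes sit back to back, with starts close together on opposite strands and a shared promoter region. Among the members, 11 H2A and H2B pairs had starts that pointed away from each other within 1000 bases, and both genes were tested in 3 of them. The stretch from H2BC4 to H2AC6 is shown because it holds the starts of both genes, 219 bases apart, and their levels moved differently. It is the RefSeq promoter window of H2AC6 in GRCh38.p14, chr6:26123922-26124221, on the plus strand. The windows of H2BC12 (chr6:27146809-27147108, minus strand) and H2BC21 (chr1:149886633-149886932, minus strand) are shown because these H2B genes moved in opposite directions in iR4 cells and under the inhibitors. Capitals mark the octamer ATTTGCAT, the CCAAT box and TATAAA on either strand, with overlapping matches merged.
H2AC6: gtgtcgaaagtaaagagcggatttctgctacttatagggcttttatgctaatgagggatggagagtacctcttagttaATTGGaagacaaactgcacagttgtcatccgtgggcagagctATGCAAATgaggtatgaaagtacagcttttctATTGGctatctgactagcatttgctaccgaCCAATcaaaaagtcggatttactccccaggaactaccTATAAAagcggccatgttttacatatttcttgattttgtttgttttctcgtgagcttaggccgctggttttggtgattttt
H2BC12: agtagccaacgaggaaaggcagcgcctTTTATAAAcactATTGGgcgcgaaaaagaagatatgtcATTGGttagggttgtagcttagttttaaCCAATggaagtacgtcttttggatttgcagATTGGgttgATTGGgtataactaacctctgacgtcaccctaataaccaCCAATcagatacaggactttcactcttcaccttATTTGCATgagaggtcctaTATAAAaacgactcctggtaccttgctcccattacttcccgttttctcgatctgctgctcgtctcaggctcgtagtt
H2BC21: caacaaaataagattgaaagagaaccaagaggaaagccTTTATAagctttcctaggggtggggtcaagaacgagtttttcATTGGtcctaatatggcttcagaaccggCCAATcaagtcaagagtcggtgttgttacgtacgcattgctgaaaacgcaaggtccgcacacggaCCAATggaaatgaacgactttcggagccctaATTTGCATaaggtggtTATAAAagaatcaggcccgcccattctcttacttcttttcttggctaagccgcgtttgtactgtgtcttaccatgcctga
All 3 windows hold each of the motifs. Promoters were matched for 59 members, a few of which have more than 1 window. The octamer occurred in 78.6% of 14 H2A and 75% of 20 H2B promoters, in 9.09% of 11 H3 promoters and in none of the 5 H1 or 13 H4 promoters, against 1.77% of 35116 promoters of all genes. The 1 H3 promoter with it is a second window of H3C4 with the same coordinates as the H2AC7 window. CCAAT occurred in every H1, H2A, H2B and H3 promoter and in 23.1% of H4 promoters, against 34.6% of all, and TATAAA in 53.8% to 72.7% of promoters by family, against 11.5% of all.

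**Figure D5:**
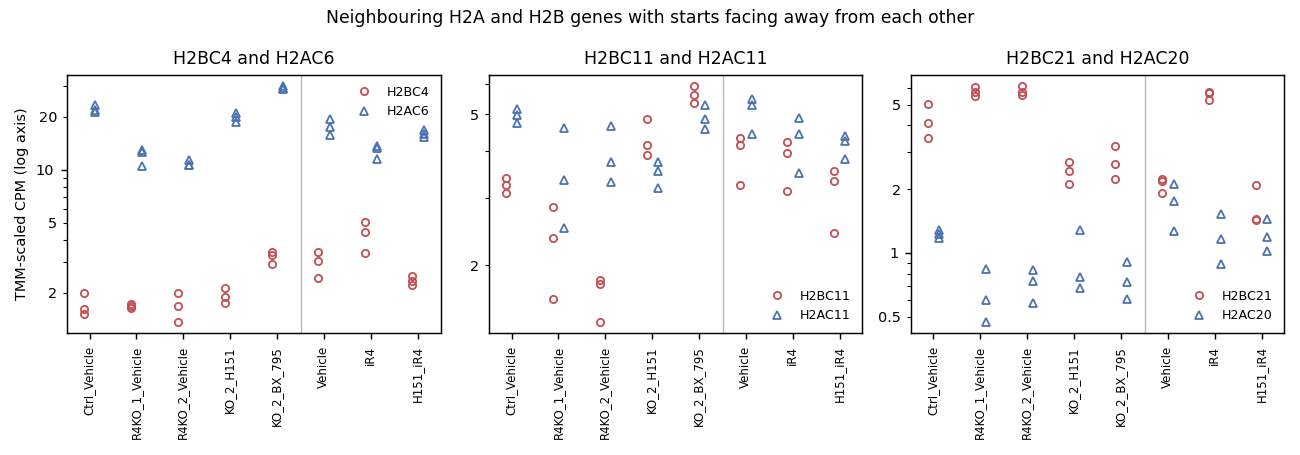
TMM-scaled CPM per library, on a log axis, of the 3 pairs of neighbouring genes that start back to back, with red circles for the gene on the minus strand and blue triangles for its plus-strand partner. H2AC6 and H2BC21 shift between groups where H2BC4 and H2AC20 shift less or the other way.

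The genes of a pair were called in the same direction in some comparisons and not in others. Against Ctrl_Vehicle, H2AC6 fell in both knockouts while H2BC4 did not pass the test in either. H2BC4 stood at 1.99, 1.62 and 1.52 CPM in Ctrl_Vehicle, at 1.64, 1.73 and 1.69 in R4KO_1_Vehicle and at 1.669, 1.999 and 1.369 in R4KO_2_Vehicle, all overlapping. In iR4 cells H2AC6 fell and H2BC4 rose, and with H-151 in that experiment the signs were the reverse. With BX-795 both rose. H2BC21 rose and its neighbour H2AC20 fell in each knockout, H2AC20 from 1.23 ± 0.0533 CPM to 0.638 ± 0.186 and 0.717 ± 0.129. Of the 50-base windows of H2AC20, 30.5% also occur in HIST2H2AA3, so its counts are uncertain. Its call in R4KO_2_Vehicle was among those lost under alternatives, as given above. In iR4 cells H2BC21 rose while H2AC20, at 1.71 ± 0.429 CPM in Vehicle and 1.19 ± 0.319 in iR4, did not pass the test (-0.52). H2BC11 and H2AC11, 292 bases apart, were both lower in R4KO_1_Vehicle, but H2BC11 alone was called in R4KO_2_Vehicle and under the inhibitors. The difference between the genes of a pair was not tested, so a call for only 1 of them does not show that they differed.

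The factors that make and process these transcripts were read from a list of 25 genes, all tested. SLBP, which binds the stem-loop, was at 141 ± 5.52 CPM in Ctrl_Vehicle, 122 ± 4.12 in R4KO_1_Vehicle and 131 ± 4.36 in R4KO_2_Vehicle. It fell by 0.20 ± 0.04 and 0.11 ± 0.04 on the log2 scale (adjusted p = 1.76e-04 and 0.0247 in edgeR) and rose by 0.17 ± 0.04 with either inhibitor in KO_2 cells. In iR4 cells SLBP did not pass the test (edgeR adjusted p = 0.196). Over the list, 4 genes rose and 11 fell in R4KO_1_Vehicle, where 33% of all tested genes rose and 31.4% fell. In R4KO_2_Vehicle 6 rose and 11 fell, where 34% of all rose and 32.2% fell, and the list's medians were -0.09 and -0.08 beside 0.02 and 0.02 over all genes. The number called in either direction was thus near the share over all genes, 64.5% and 66.2%. CPSF3, the endonuclease that cuts histone pre-mRNA, fell by 0.57 ± 0.05 and 0.53 ± 0.05, and NCBP1, a cap-binding protein, fell by 0.50 ± 0.04 and 0.58 ± 0.04. Other list genes had higher means, such as NPAT at 37.1 ± 0.633 and 39.6 ± 0.966 CPM against 32.8 ± 0.635 in Ctrl_Vehicle. CPSF3 and NCBP1 also fell in iR4, by 1.05 ± 0.05 and 0.70 ± 0.03, while CCNE2 of the list rose by 0.64 ± 0.05. With H-151 in that experiment, against the same iR4 libraries, CPSF3 and NCBP1 rose by 1.01 ± 0.05 and 0.62 ± 0.03, and CCNE2 fell by 0.71 ± 0.05. The list counted 9 higher and 10 lower in iR4 (all tested genes: 37.1% and 34.8%). It counted 11 higher and 8 lower with H-151 there (35.1% and 36.3%). With H-151 in KO_2 cells 12 list genes rose and 7 fell. Among the former were LSM10 and ZNF473, parts of the U7 machinery, at 0.80 ± 0.06 and 0.72 ± 0.06. NPAT, also on the list, fell by 0.51 ± 0.05. With BX-795 10 rose and 9 fell. The totals in KO_2 cells too were near those over all genes, 72.7% and 73.6%.

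Replication-independent histone genes were read in the same fits. In R4KO_1_Vehicle 1 of 10 tested rose and 7 fell, and in R4KO_2_Vehicle 1 rose and 8 fell, with medians of -0.30 and -0.31. Over all tested genes 33% rose and 31.4% fell in the former, and 34% and 32.2% in the latter. CENPA, the centromeric H3, fell by 0.76 ± 0.05 and 0.79 ± 0.05, and H3-3B, which encodes H3.3, fell by 0.58 ± 0.04 and 0.49 ± 0.04. With H-151 in KO_2 cells 8 of 10 rose and 2 fell, where 35.7% of all genes rose and 37% fell. CENPA rose by 0.99 ± 0.04 and H2AJ fell by 0.98 ± 0.08. S-phase genes, 30 in all, counted 6 higher and 17 lower in R4KO_1_Vehicle, 7 and 16 in R4KO_2_Vehicle, 9 and 10 with H-151 and 10 and 11 with BX-795 in KO_2 cells. In iR4 they counted 9 higher and 15 lower, and with H-151 in that experiment 14 higher and 9 lower. Of all tested genes, 64.5%, 66.2%, 72.7%, 73.6%, 71.9% and 71.4% were called in these comparisons in the same order, split about evenly between the directions. MCM5, a subunit of the replicative helicase, fell by 0.50 ± 0.04 and 0.61 ± 0.04 in the knockouts, and UHRF1, a chromatin factor of replicating DNA, fell by 0.97 ± 0.04 and 0.47 ± 0.04. Others went up, such as FEN1, at 195 ± 1.11 and 200 ± 4.81 CPM against 168 ± 3.05 in Ctrl_Vehicle. In iR4, E2F1 and CDC6 rose by 0.76 ± 0.04 and 0.49 ± 0.04 on the log2 scale, while MCM6 fell by 0.45 ± 0.03. The part of cell cycle distribution in the members' changes was not tested.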

How the data were processed

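RNA was sequenced from 24 SCC1 libraries, and the mouse tumor libraries of the same study were not analysed here. Per the labels' protocols, mRNA was captured on oligo(dT) beads, and fragments were copied from random hexamers. The build hg38 and the tools HISAT2 2.2.1, featureCounts 2.0.1, Trim Galore 0.6.4, FastQC 0.11.9 and DESeq2 1.42.0 are named, without their order, per the submitters' processing notes. The sources used here do not give the annotation, the strand setting or the treatment of reads with several positions. The deposited values are raw counts per Ensembl gene ID, used as deposited with 1 row per ID.

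Tests were run on the counts with edgeR 4.0.16 (R 4.3.3), using TMM factors, its filterByExpr filter at 10 counts, the quasi-likelihood F test, and Benjamini-Hochberg adjustment over all tested genes at a threshold of 0.05. The 15 knockout and 9 iR4 libraries were fitted apart, and all 24 together for the difference between experiments. Levels are CPM scaled by TMM factors over the 24 libraries. Sites, lengths and overlaps come from GENCODE v29 (GRCh38), and promoters (250 bases before to 50 after each start) from RefSeq in GRCh38.p14. Members, gene lists and tests were chosen with earlier results of these data known. Named members are the 2 with the highest mean in each family, the 3 largest called rises and 3 largest called falls in each of 6 comparisons, and members known to have polyadenylated forms with counts. Other named genes are up to 3 of lowest p per list, and SLBP. H2BC15 and other members outside that rule were named after their values were seen.

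Replicates of a group differed by more than counting noise (chi-square per degree of freedom 1.66 to 10.4), so none was counted as a repeat. Same-numbered replicates did not deviate together: 1 of 39 pairs correlated above 0.1 (from -0.0854 to 0.195). Alternatives were upper-quartile or RLE factors, the Wald test of DESeq2 1.42.0, no filter, 1 CPM in 3 libraries, other sets of libraries, the replicate number as a block, leaving out each replicate, and plain CPM. The fit was also tested on simulated data. Limits for a count of 0 use 3 counts and cover counting error only.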

Additional observations from a re-analysis of the deposited data

Results flagged for a closer look

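Effects of the same kind that differed between knockouts or experiments, by a test of the difference itself in edgeR, were found for 10 member results. Between the knockouts, R4KO_2 minus R4KO_1, the log2 difference was -0.36 for H1-2 (adjusted p = 0.00249), -0.82 for H2BC12 (2.75e-09), -0.44 for H2BC15 (0.0115), -0.99 for H2BC17 (0.0246) and -0.55 for H4C9 (4.52e-04). The H2BC12 difference had opposite signs against the control in the knockouts. Between experiments, the H-151 effect in iR4 cells minus that in KO_2 cells was -0.54 for H2AC6 (edgeR adjusted p = 2.76e-04), -1.07 for H2BC4 (7.07e-04), -1.63 for H2BC11 (1.97e-06), -0.62 for H2BC12 (2.05e-07) and -0.65 for H2BC15 (0.0074).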

How the results depend on the processing

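Of 78 calls named for members, 52 were kept under every alternative run and 26 were lost under at least 1; none changed sign. Counts of called members moved by over 1.5 times in these cases. With the filter of 1 CPM, which tests fewer members, R4KO_2_Vehicle against Ctrl_Vehicle had 2 higher, H-151 in KO_2 cells 4 lower, BX-795 2 lower and iR4 4 higher. With no filter, R4KO_2_Vehicle against R4KO_1_Vehicle had 1 higher and iR4 8 lower, and the cause was not tested. With DESeq2, R4KO_2_Vehicle against R4KO_1_Vehicle had 3 lower, and H-151 had 5 lower in KO_2 cells and 5 lower in iR4 cells, and again the cause was not tested. Leaving out each library in turn gave 3 to 5 lower in R4KO_1_Vehicle (3 without R4KO_1_Vehicle replicate 3), 5 to 8 lower with H-151 in KO_2 cells (5 without KO_2_H151 replicate 2 or R4KO_2_Vehicle replicate 2), and 0 to 1 higher for the difference in H-151 effect (1 without KO_2_H151 replicate 1 or R4KO_2_Vehicle replicate 3). Plain CPM moved the summed level of all members to 120 in Ctrl_Vehicle, 139 in R4KO_1_Vehicle, 109 in R4KO_2_Vehicle, 128 in KO_2_H151, 114 in Vehicle and 98.0 in H151_iR4. With the replicate number as a block, H-151 in iR4 cells had 7 lower in place of 8, and every other count was as without it; the numbers did not pair the libraries. Of the 64 members, 26 passed the count filter in any fit. The members' median log2 fold changes depended on these choices. Leaving out a library moved them by more than 0.0179, the SD of the members' median between replicate libraries, in 51 cases and by less in 9, and the other alternatives in 31 and 39. The median ran from -0.01 to 0.33 in R4KO_1_Vehicle, from -0.17 to 0.12 in R4KO_2_Vehicle, from -0.25 to 0.11 with H-151 in KO_2 cells, from -0.11 to 0.20 in iR4 and from -0.37 to 0.05 for the difference in H-151 effect, so its sign was not fixed in these 5. It stayed above 0 with BX-795, at 0.06 to 0.25, and between the inhibitors, at 0.35 to 0.40, and below 0 with H-151 in iR4 cells, at -0.37 to -0.01.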
